A study of Homo sapiens with 4 samples.

Results

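The replication origin and fork machinery was followed in SKOV3, a human cell line established from an ovarian carcinoma, through 46 genes listed by function: the origin recognition complex, the licensing and firing factors, the MCM helicase and GINS, the replicative polymerases, the clamp and its loader, the single-strand binding protein RPA, and proteins that rebuild chromatin behind the fork. Each gene was represented by its brightest probe set among those annotated to it alone, out of 83 such probe sets for the 46 genes and 19775 genes on the array, and all 46 were bright enough to be among the 12296 genes tested. RNA of 2 control samples and of 2 samples with rhSTIP1 was measured on 4 Affymetrix arrays, 1 per sample. STIP1 is a cochaperone that links HSP70 and HSP90 and is also secreted, and rh is taken here to stand for recombinant human. The labels give neither dose nor duration, and they do not tell whether samples of 1 group were grown separately. The p-values thus set each group difference only against the scatter of these samples, and that scatter may be technical. The comparison asks which transcripts differ in cells given the protein.

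Replication starts at origins bound by the origin recognition complex, where CDC6 and CDT1 load the ring-shaped MCM helicase in G1 phase. In S phase the kinase CDC7 with its activator DBF4, together with CDC45, MCM10 and GINS, turns the loaded ring into an active helicase, polymerase alpha-primase lays down primers, and polymerases delta and epsilon extend them on the sliding clamp PCNA. Many of these genes are transcribed around the start of S phase under E2F transcription factors, and their expression is widely used as a sign of proliferation in carcinoma cells.

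Most of the machinery was lower with rhSTIP1, by amounts that were modest and uneven between the 2 treated arrays. The log2 fold change, rhSTIP1 minus control on log2(signal + 16), was below 0 for 44 of the 46 genes, against 46.8% of all genes tested, and its median was −0.44 with quartiles of −0.68 and −0.23, against a median of 0.02 over all genes tested. Both rhSTIP1 arrays lay below both controls for 25 of the 46 genes (54.3%), against 14.9% of all genes tested, and above both for 0, against 14%. A gene is called separated here when both treated arrays lay on the same side of both controls and the group means differed by at least 1.5-fold. By that rule 15 of the 46 were lower (32.6%), against 3.79% of all genes tested, and 0 were higher, against 1.9%. With each array centred on its median, 9 of the 46 were separated and lower, and over all genes tested 2.85% were then lower and 2.65% higher. The 15 were ORC5, ORC6, CDT1, CDC7, DBF4, CDC45, GINS1, GINS4, POLA2, PRIM1, PRIM2, POLE, POLE2, RFC4 and UHRF1. GINS1, at 1.51-fold, was the member just inside the rule and MCM7, with a log2 fold change of −0.58, the one just outside. In RNA from bulk samples, fewer cells in S phase and less transcript per cell cannot be told apart.

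None of these differences passed the main test over all genes, which compared the groups without regard to replicate number. A fit with that number as a block is described in the closing section. In limma, with Benjamini-Hochberg adjustment, 0 of 12296 genes (0%) and 0 of the 46 had an adjusted p under 0.05. The smallest among the 46 was 0.702, for ORC5, and the other 45 were at 0.999. Without adjustment, 452 of the genes tested had a p under 0.05, and 8 of the 46 (17.4%) did so with lower values, against 2.64% of all genes tested. These were ORC5, ORC6, CDT1, DBF4, GINS4, POLA2, PRIM1 and RFC4. For a single gene, the smallest p that an exact two-sided permutation of 2 against 2 arrays allows is 0.333.

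The lower values rested mainly on rhSTIP1 array 1. That array lay below both controls for 43 of the 46 genes, against 33.3% of all genes tested. It was the lowest of the 4 arrays for 40, while over all genes tested it was the lowest for 27.0%. rhSTIP1 array 2 lay below both controls for 27 genes (58.7%), between them for 13 (28.3%) and above both for 6 (13.0%). Over all genes tested those shares were 30.7%, 32.8% and 36.5%. Against the mean of the controls the median difference was −0.76 on rhSTIP1 array 1 and −0.20 on rhSTIP1 array 2, and over all genes tested these medians were −0.00016 and 0.028. Without rhSTIP1 array 1, 5 of the 46 were separated and lower (ORC5, DBF4, GINS4, PRIM1 and RFC2), against 6.69% of all genes tested, which is near the share among the 46. Without rhSTIP1 array 2 the count was 33 of the 46, against 7.71% of all genes tested. The controls differed less over these genes, control array 2 lying above control array 1 for 20 of 46, with a median difference of −0.057. As a measure of RNA quality, the ACTB probe set at the 3′ end was brighter than that at the 5′ end by a ratio of 2.74 and 2.45 in the controls, 2.62 on rhSTIP1 array 1 and 8.79 on rhSTIP1 array 2. The same GAPDH ratio ran from 0.987 to 1.32. The part of RNA quality in the gap between the treated arrays was not tested.

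**Figure D1:**
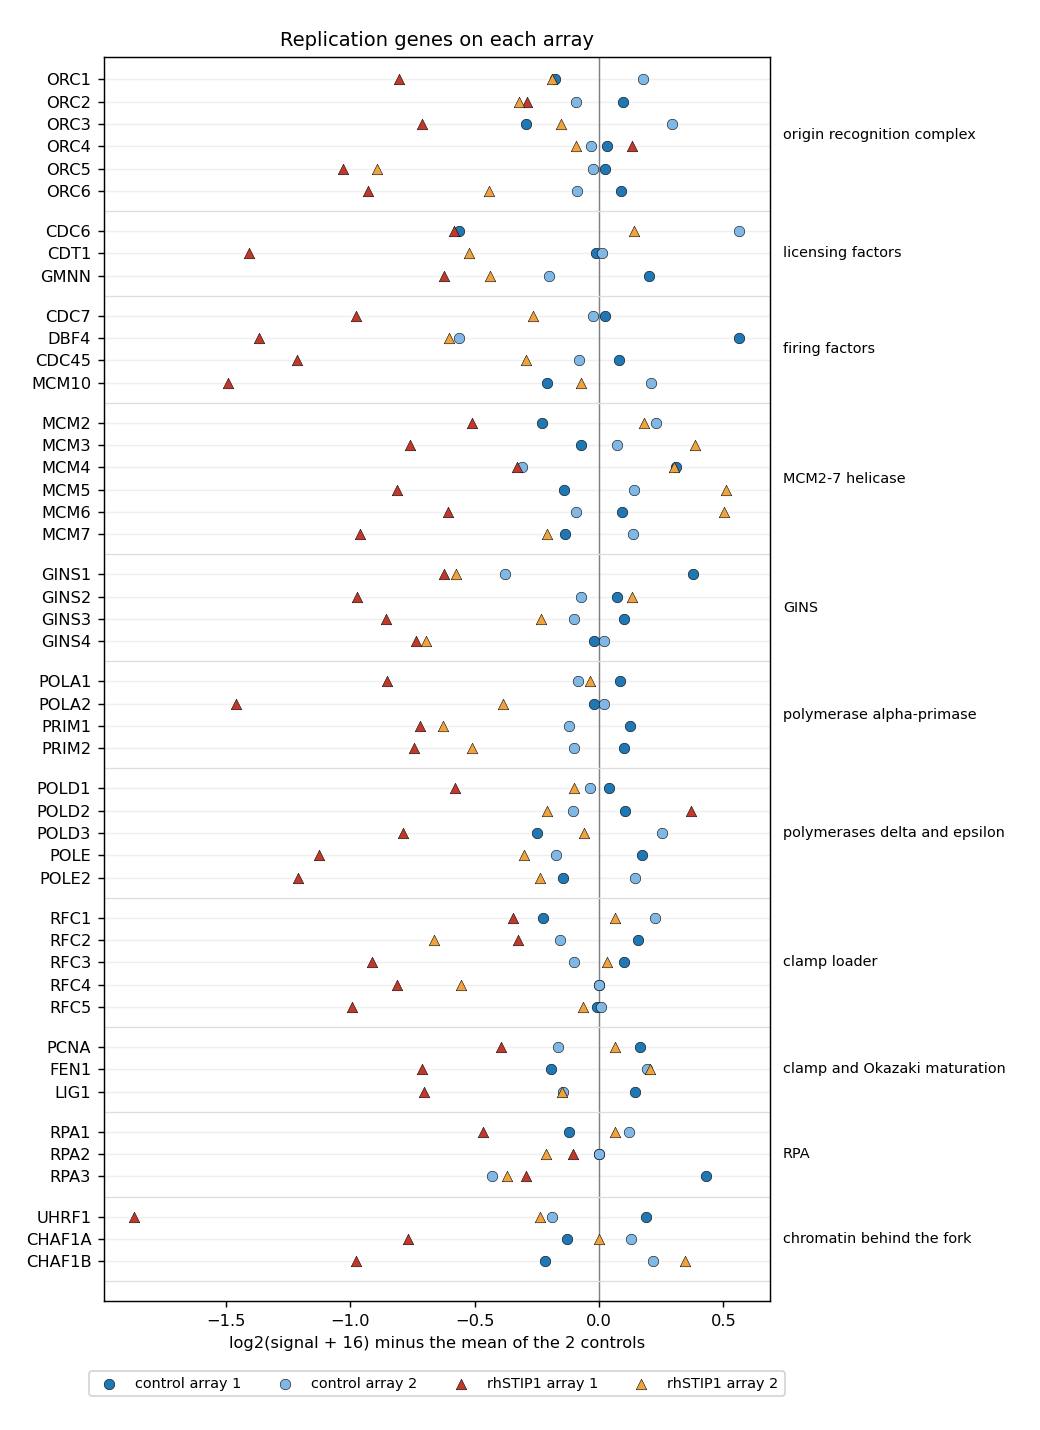
Signals of the 46 genes on each array as log2(signal + 16) minus the mean of the 2 controls (x axis), 1 row per gene, grouped by complex; circles are the control arrays and triangles the rhSTIP1 arrays. rhSTIP1 array 1 is the lowest of the 4 points for 40 genes, while rhSTIP1 array 2 is above both controls for 6.

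Some markers of an epithelial carcinoma line were bright and others were dim. ERBB2, which is amplified in SKOV3, had signals of at least 9641, and PAX8 and KRT8 had at least 6779 and 4538 on every array. WT1 had 91.0 and 97.8 on the control arrays and 37.3 and 118 on the rhSTIP1 arrays. MSLN had 185 and 248 against 221 and 323. CDH1 had 299 and 1355 against 521 and 2110, higher on array 2 of both groups. MUC16 and the leucocyte marker PTPRC had mean signals below 69.4, the minimum for a test. That minimum was reached by 3 of 6 fibroblast markers, 1 of 4 leucocyte markers and 1 of 4 endothelial markers. The summed signal of the 11 epithelial and ovarian markers was 51438 and 51039 on the control arrays against 54755 and 57671 on the treated ones. Those sums were 603 and 327 against 565 and 364 for 6 fibroblast markers, and 171 and 153 against 128 and 255 for 4 leucocyte markers, and 199 and 211 against 354 and 206 for 4 endothelial markers. The part of other cell types in the results was not tested.

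The promoters of these genes were searched for the 8-letter E2F consensus in its 4 spellings (TTTCCCGC or TTTCGCGC or TTTGCCGC or TTTGGCGC). The CHR element of late cell cycle genes (TTTGAA or TTCGAA) was also searched for. Both strands were read, with overlapping matches each counted. Many of the genes are known to be under E2F factors, so a high E2F share could be foreseen without the arrays. RefSeq promoter windows on GRCh38.p14, from 250 bases before to 50 after the start, were found for 40 of the 46 genes. An E2F spelling was present for 20 of the 40, against 6.66% of the 10023 tested genes that have a window, and in 3.31% of all 35116 windows. It was found for 7 of the 14 separated genes with a window and for 13 of the other 26, the same share of each. The CHR element was present for 2 of the 40, DBF4 and MCM6, against 15.5% of the tested genes with a window and 16.4% of all windows. A match is a description of letters, not of binding. The windows below are those of the 5 separated genes with an E2F match whose log2 fold changes were furthest below 0, from 250 bases before the start, with the E2F letters in capitals. They run from 5′ to 3′ on the strand of the gene: UHRF1 at chr19:4909251-4909500 (plus strand), CDT1 at chr16:88803539-88803788 (plus), POLA2 at chr11:65261712-65261961 (plus), POLE2 at chr14:49688212-49688464 (minus) and POLE at chr12:132687343-132687592 (minus).
UHRF1: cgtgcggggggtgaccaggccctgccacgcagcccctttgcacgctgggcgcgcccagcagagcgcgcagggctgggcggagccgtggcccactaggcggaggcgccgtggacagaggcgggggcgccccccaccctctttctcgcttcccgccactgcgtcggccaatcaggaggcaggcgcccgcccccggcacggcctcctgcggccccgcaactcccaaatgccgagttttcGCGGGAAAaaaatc
CDT1: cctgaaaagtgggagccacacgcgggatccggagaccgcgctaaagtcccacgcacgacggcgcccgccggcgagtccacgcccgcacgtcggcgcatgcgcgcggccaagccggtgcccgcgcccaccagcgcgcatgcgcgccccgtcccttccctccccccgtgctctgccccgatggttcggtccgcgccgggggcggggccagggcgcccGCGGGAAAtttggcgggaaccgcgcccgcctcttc
POLA2: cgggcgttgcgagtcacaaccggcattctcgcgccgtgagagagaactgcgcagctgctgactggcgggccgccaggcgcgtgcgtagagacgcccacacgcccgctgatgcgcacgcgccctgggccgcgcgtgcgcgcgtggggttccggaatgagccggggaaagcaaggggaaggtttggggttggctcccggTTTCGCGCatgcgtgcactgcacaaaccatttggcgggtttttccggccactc
POLE2: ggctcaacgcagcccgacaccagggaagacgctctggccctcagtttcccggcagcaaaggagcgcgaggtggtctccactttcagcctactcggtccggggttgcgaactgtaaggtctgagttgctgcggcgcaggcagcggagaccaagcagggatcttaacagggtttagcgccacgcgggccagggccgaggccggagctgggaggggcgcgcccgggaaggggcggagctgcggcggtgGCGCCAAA
POLE: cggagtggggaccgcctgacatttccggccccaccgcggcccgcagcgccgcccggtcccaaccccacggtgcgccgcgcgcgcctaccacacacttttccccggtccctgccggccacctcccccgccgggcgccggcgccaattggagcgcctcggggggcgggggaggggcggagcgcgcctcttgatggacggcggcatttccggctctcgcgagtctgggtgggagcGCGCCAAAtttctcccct

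In these windows the first base of the match lay 14 bases before the start in UHRF1, 35 in CDT1, 53 in POLA2, 5 in POLE2 and 18 in POLE. The POLA2 match read TTTCGCGC on the gene strand, those of UHRF1 and CDT1 read TTTCCCGC on the opposite strand, and those of POLE and POLE2 read TTTGGCGC there. A second UHRF1 window held TTTCGCGC 160 bases before its start. Among genes that were not separated, MCM6 held 4 matches, in 2 overlapping pairs. MCM2 held 2 that overlapped each other, and MCM3 and MCM7 held 2 each, apart from each other. PCNA, LIG1 and GMNN held 1 each.

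The origin recognition complex, which marks origins, was lower in 2 of its 6 subunits by the separation rule, and its median log2 fold change was −0.47. ORC5 had signals of 1057 and 1025 on the control arrays and 502 and 553 on the rhSTIP1 arrays. Both treated arrays were thus close to each other and well under both controls, at −0.96 ± 0.23 (± is the standard error from limma, 2 arrays a group) or 1.95-fold lower. A dimmer probe set of ORC5, with control signals of 320.4 and 333, gave −1.23, and its groups did not overlap either. ORC6, the smallest subunit, had control signals of 2481 and 2195 and treated signals of 1217 and 1715, or −0.69 ± 0.26; its probe set is of a kind whose probes can also match other transcripts. In ORC1, a subunit whose level follows the cell cycle, the signals were dim at 127 and 167 without and 76.5 and 126 with the protein. Its arrays did not overlap, but rhSTIP1 array 2 was just under control array 1, and the log2 fold change was −0.50 ± 0.38. ORC2 had 1269 and 1111 on the control arrays and 969 and 947 on the rhSTIP1 arrays. Both treated arrays were a little below both controls, for −0.31 ± 0.23. ORC3 gave 1469 and 2219.9 in control cells against 1096 and 1623 in treated cells. There rhSTIP1 array 2 lay between the controls, for −0.43 ± 0.31. ORC4, the brightest subunit, had control signals of 4757 and 4539.6 and treated signals of 5089 and 4354, with rhSTIP1 array 1 the highest and rhSTIP1 array 2 the lowest of the 4. Its log2 fold change was 0.018 ± 0.21, and −0.17 on its other probe set.

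Licensing factors load the helicase or restrain its loading. CDT1, the loader that is destroyed once S phase begins, had 602 and 612 without and 219 and 417 with the protein. The controls were almost equal, both treated arrays were below them and rhSTIP1 array 1 was by far the lowest, at −0.97 ± 0.33 or 1.95-fold lower. A second probe set of CDT1 gave −1.27, and the brighter one is of the kind that can match other transcripts. GMNN encodes geminin, the inhibitor of CDT1, and had 5776 and 4361 on the control arrays and 3253 and 3703 on the rhSTIP1 arrays. Both treated arrays were below both controls at −0.53 ± 0.23, or 1.44-fold, under the 1.5-fold line. CDC6, the ATPase that works with CDT1, had 509 and 1131 in control cells against 501 and 839.7 in treated cells. Its controls differed more than its groups did, and the log2 fold change was −0.22 ± 0.42. Leaving out control array 2 gave 0.34, and leaving out rhSTIP1 array 1 gave 0.14. The second probe set of CDC6 gave −0.17.

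Firing factors switch the loaded helicase on, and 3 of the 4 were separated and lower, with a median of −0.77. The kinase CDC7 had control signals of 684 and 662 and treated signals of 334 and 557, at −0.62 ± 0.30 or 1.54-fold lower. Its activator DBF4 had 1250.2 and 566 without and 317 and 549 with the protein. Control array 1 stood far above the other 3 arrays, and rhSTIP1 array 2 was only slightly under control array 2, so that the value of −0.98 ± 0.42 became −0.42 without control array 1. CDC45, a subunit of the active helicase, had 419 and 372 on the control arrays and 161 and 319 on the rhSTIP1 arrays, with rhSTIP1 array 1 the lowest by far, for −0.75 ± 0.35. MCM10, which helps to activate the helicase, had 266 and 361 in control cells against 99.9 and 294 in treated cells. It overlapped, since rhSTIP1 array 2 lay between the controls, and its log2 fold change of −0.78 ± 0.47 came to −0.071 without rhSTIP1 array 1. The 2 other probe sets of MCM10 gave −0.94 and −0.73.

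In the MCM2-7 helicase, which unwinds the DNA, the 2 treated arrays lay on opposite sides of both controls for 3 of the 6 subunits, MCM3, MCM5 and MCM6. None of the 6 was separated by 1.5-fold, and its median log2 fold change was −0.16. On rhSTIP1 array 1 the median difference from the controls was −0.68, and on rhSTIP1 array 2 it was 0.34. MCM6 had control signals of 2279 and 2007 and treated signals of 1397 and 3038, with the highest and the lowest of the 4 arrays both in the treated group, for −0.052 ± 0.36. MCM5, with 739.6 and 900.4 without and 458 and 1171 with the protein, also had its highest and lowest signals there, for −0.15 ± 0.42. MCM3 had 1740.4 and 1922 on the control arrays and 1074 and 2397 on the rhSTIP1 arrays, and −0.19 ± 0.37. In these 3 genes rhSTIP1 array 2 was above both controls and rhSTIP1 array 1 below both. MCM3 had no other probe set, and those of MCM5 and MCM6 did not show that order. The second of MCM6 was far dimmer, with control signals of 110 and 106 and treated signals of 43.5 and 101. It gave −0.58 with both treated arrays below both controls, rhSTIP1 array 2 only just so. The second of MCM5, also dimmer, gave −0.21 with rhSTIP1 array 2 between the controls. MCM2 had 1454 and 2004 in control cells against 1192 and 1939.6 in treated cells, at −0.17 ± 0.31, with rhSTIP1 array 2 just under control array 2. MCM4 gave control signals of 1523 and 985 and treated signals of 971 and 1515, and −0.014 ± 0.32. Each group of MCM4 held 1 brighter and 1 dimmer array at nearly the same 2 levels, and 3 other probe sets above the level for testing gave −0.12, −0.31 and −0.36. MCM7 was the exception among the subunits, with 977 and 1185 without and 545 and 929.7 with the protein and no overlap between the groups. Its −0.58 ± 0.31 was just short of 1.5-fold, and its second probe set gave −0.25. Without rhSTIP1 array 1 the helicase median was 0.34 and the log2 fold changes of MCM2, MCM3, MCM4, MCM5 and MCM6 were above 0, from 0.18 to 0.51; with median centring those of MCM4 and MCM6 were 0.041 and 0.0028, and with quantile normalization that of MCM4 was 0.036.

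**Figure D2:**
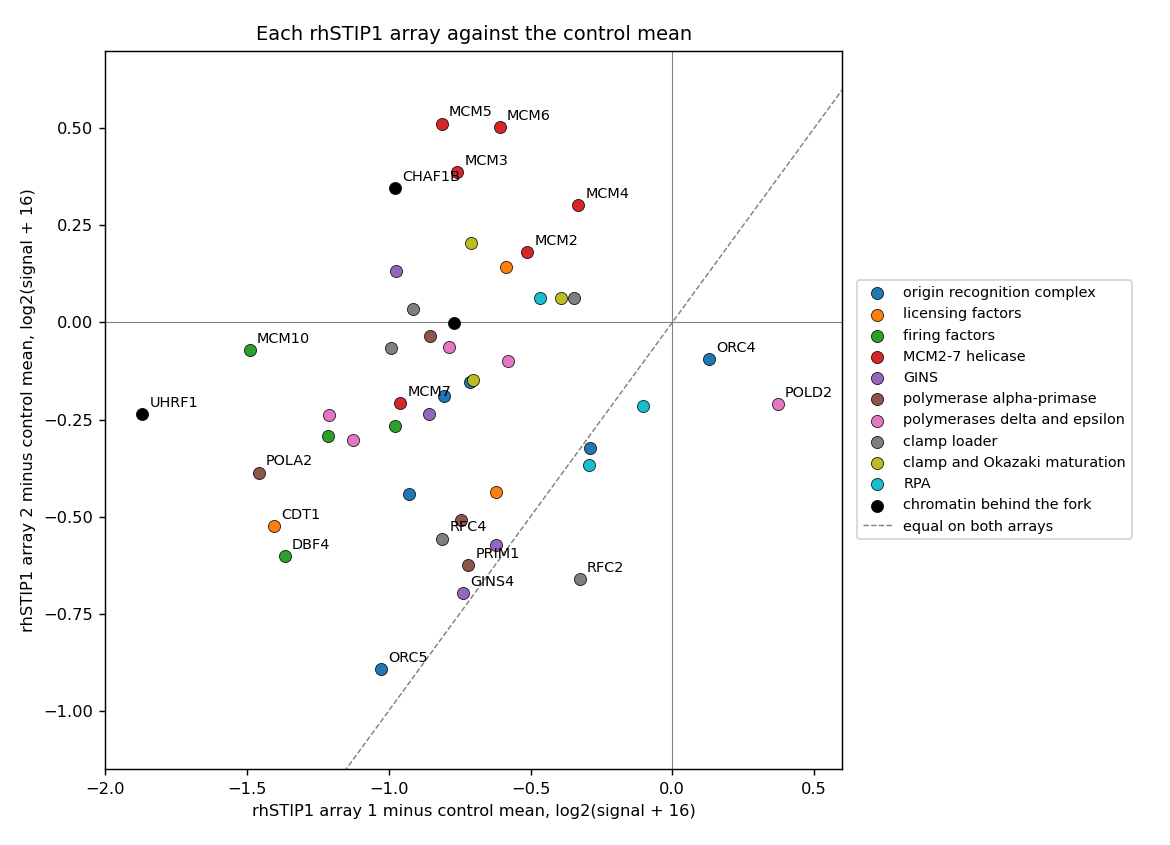
Difference of each gene from the control mean on rhSTIP1 array 1 (x axis) and rhSTIP1 array 2 (y axis), both in log2(signal + 16), coloured by complex; the dashed line marks equal differences. MCM2 to MCM6 sit above 0 on array 2 and below 0 on array 1, while ORC5, GINS4 and PRIM1 lie near the dashed line well below 0 on both.

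GINS joins CDC45 and MCM2-7 in the moving helicase, and its 4 subunits had a median of −0.57. GINS4 had 260.2 and 268 on the control arrays and 152 and 157 on the rhSTIP1 arrays. The controls were alike, the treated arrays were alike, and the log2 fold change was −0.72 ± 0.28 or 1.64-fold lower; a dimmer probe set gave −0.17. GINS1 had 2753 and 1621 in control cells against 1368 and 1414 in treated cells, where control array 1 was far above the rest, at −0.60 ± 0.30, and −0.22 without that array. GINS3 was at 741 and 643 without and 374 and 584 with the protein, with no overlap between the groups and 1.46-fold lower at −0.55 ± 0.29. GINS2 gave 501 and 451 without and 234 and 523 with the protein. There rhSTIP1 array 2 was the highest of the 4 and rhSTIP1 array 1 the lowest, for −0.42 ± 0.38, a value that was 0.13 without rhSTIP1 array 1 and −0.017 on a dimmer probe set.

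Polymerase alpha-primase makes the primers of both strands, and 3 of its 4 genes were separated and lower. Its median was −0.65. PRIM1, the catalytic primase subunit, had 1104 and 929 on the control arrays and 609 and 651 on the rhSTIP1 arrays. Both treated arrays were well below both controls, at −0.67 ± 0.24 or 1.59-fold lower, and with each array left out in turn the value ran from −0.80 to −0.55. PRIM2, the large primase subunit, had 339 and 293 in control cells against 182 and 217 in treated cells, and −0.63 ± 0.28. A further 4 probe sets annotated both to PRIM2 and to its pseudogene PRIM2BP were left out, so the level of PRIM2 itself is less certain. POLA2, the regulatory subunit, had control signals of 484 and 499 and treated signals of 169 and 372, with nearly equal controls and a treated group spread over more than 2-fold, for −0.92 ± 0.37 or 1.90-fold lower. The 2 dimmer probe sets of POLA2 did not share that value, at −0.024 and 0.47. POLA1, the polymerase subunit, had 572 and 508 without and 291 and 526 with the protein, where rhSTIP1 array 2 lay between the controls, at −0.44 ± 0.32.

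Of the polymerases that extend the primers, the 2 listed subunits of polymerase epsilon, the leading-strand enzyme, were separated and lower, and the 3 listed of polymerase delta, the lagging-strand enzyme, were not. POLE, the catalytic subunit, had 514 and 401 on the control arrays and 199 and 365 on the rhSTIP1 arrays, at −0.71 ± 0.34 or 1.64-fold lower. POLE2 had 507 and 623 in control cells against 234 and 474 in treated cells, at −0.72 ± 0.36. In both genes rhSTIP1 array 2 was little below the lower control and rhSTIP1 array 1 far below it. POLD1, the catalytic subunit of delta, had control signals of 695 and 659 and treated signals of 447 and 631, with no overlap but only −0.34 ± 0.26. POLD3 had 815 and 1162 without and 557 and 931 with the protein, and −0.43 ± 0.32, with rhSTIP1 array 2 between the controls; a dimmer probe set of POLD3 gave −0.74. POLD2 had 1803 and 1560.2 on the control arrays and 2175 and 1449 on the rhSTIP1 arrays and went the other way on rhSTIP1 array 1, the highest of the 4, for 0.081 ± 0.27. The other epsilon subunits, POLE3 (−0.14 ± 0.25) and POLE4 (−0.066 ± 0.26), belong to the further replication genes and were not separated. A difference between the epsilon and delta subunits was not tested.

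The clamp loader RFC opens PCNA and closes it around DNA. RFC4 had 3734 and 3742 in control cells against 2124 and 2536 in treated cells. Its controls were nearly equal and both treated arrays were far below them, at −0.68 ± 0.22 or 1.61-fold lower, and it was the only RFC gene that was separated by 1.5-fold. RFC2 had control signals of 1568 and 1258 and treated signals of 1117 and 882, with rhSTIP1 array 2 the lowest, for −0.49 ± 0.26 or 1.41-fold, and −0.61 on its second probe set. RFC5 had 1293 and 1305 without and 645 and 1240.1 with the protein, at −0.53 ± 0.33. Its rhSTIP1 array 2 was near the controls and its other probe sets gave −0.77 and 0.29, the latter with signals from 239 to 1575 that were high on array 2 of both groups. RFC3 had 864 and 749 on the control arrays and 419 and 824 on the rhSTIP1 arrays, at −0.44 ± 0.34, with rhSTIP1 array 2 between the controls. Both dimmer probe sets of RFC3 were without overlap, at −0.83 and −1.23. RFC1, the large subunit, had 1372 and 1884 in control cells against 1262 and 1679.5 in treated cells, with rhSTIP1 array 2 between the controls, at −0.14 ± 0.27, and −0.31 on a second probe set.

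PCNA, FEN1 and LIG1 form the clamp and join Okazaki fragments on it, and 0 of the 3 were separated by 1.5-fold. PCNA, the brightest gene of all 46, had control signals of 6959 and 5526 and treated signals of 4715 and 6485, at −0.16 ± 0.24, with rhSTIP1 array 2 between the controls. The flap nuclease FEN1 had 1944 and 2548 without and 1354 and 2567 with the protein, at −0.25 ± 0.34, with rhSTIP1 array 2 the highest by a small margin; its second probe set gave −0.60 without overlap. The ligase LIG1 had 1206 and 984 on the control arrays and 663 and 981 on the rhSTIP1 arrays, at −0.43 ± 0.28, where rhSTIP1 array 2 was all but equal to control array 2. Without rhSTIP1 array 1 the median of these 3 genes was 0.064, against −0.25 with all arrays.

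RPA coats single-stranded DNA at the fork, and 0 of its 3 genes were separated by 1.5-fold. RPA2 had 1628 and 1625 in control cells against 1511 and 1399.8 in treated cells, with both treated arrays slightly below both controls, at −0.16 ± 0.23. RPA1 had control signals of 1812 and 2140.2 and treated signals of 1419 and 2058, with rhSTIP1 array 2 between the controls, at −0.20 ± 0.27. RPA3 had 2698 and 1477 without and 1626 and 1543 with the protein, at −0.33 ± 0.31, but only control array 1 stood above the other 3 arrays, and without it the value was 0.10.

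Behind the fork UHRF1 carries DNA methylation to the new strand and CHAF1A and CHAF1B, subunits of chromatin assembly factor 1, deposit histones. UHRF1 had 1588 and 1219 on the control arrays and 369 and 1178 on the rhSTIP1 arrays. This was the lowest log2 fold change of the 46, at −1.05 ± 0.49 or 2.07-fold lower, and it rested on rhSTIP1 array 1, since rhSTIP1 array 2 was only just under control array 2 and the value was −0.24 without rhSTIP1 array 1. CHAF1A had 601 and 720.2 in control cells against 379.7 and 658 in treated cells, at −0.38 ± 0.31, with rhSTIP1 array 2 between the controls. Its 2 other bright probe sets gave −0.64 and −0.73 with no overlap, and the brightest is of the kind that can match other transcripts. CHAF1B had control signals of 293 and 402 and treated signals of 167 and 441, at −0.32 ± 0.44, with the highest and lowest arrays both in the treated group.

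**Figure D3:**
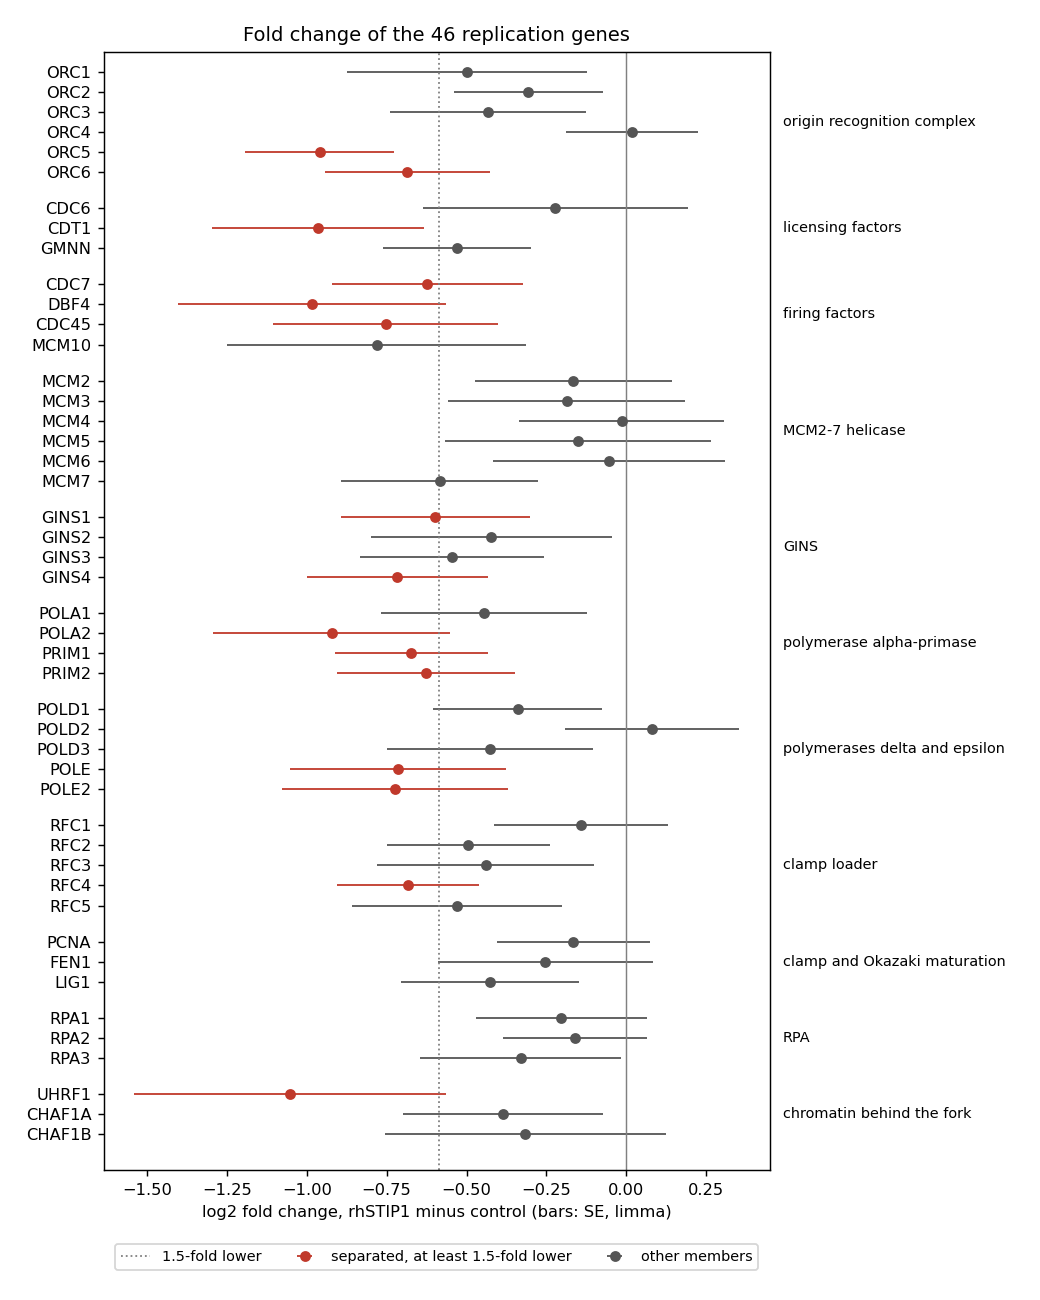
Log2 fold change of each of the 46 genes, rhSTIP1 minus control (x axis), with bars of 1 standard error from limma, 2 arrays a group; red marks the 15 genes that were separated and at least 1.5-fold lower, and the dotted line is 1.5-fold lower. Only ORC4 and POLD2 lie above 0, and the MCM2 to MCM6 values lie within 1 standard error of 0.

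The size of the difference ran by complex from −0.77 for the firing factors and −0.65 for polymerase alpha-primase to −0.20 for RPA and −0.16 for MCM2-7, as medians of 3 to 6 genes; differences between complexes were not tested. With rhSTIP1 array 1 left out, the medians of MCM2-7 and of the clamp and Okazaki genes were above 0, at 0.34 and 0.064. Those of chromatin behind the fork and the clamp loader were −0.00030 and −0.066. The firing factors, at the head of the order above, then had −0.28. Those of the origin recognition complex, GINS and polymerase alpha-primase were −0.26, −0.40 and −0.45. Polymerases delta and epsilon had −0.21, RPA −0.21 and the licensing factors −0.44. With rhSTIP1 array 2 left out, all 11 medians were below 0.

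**Figure D4:**
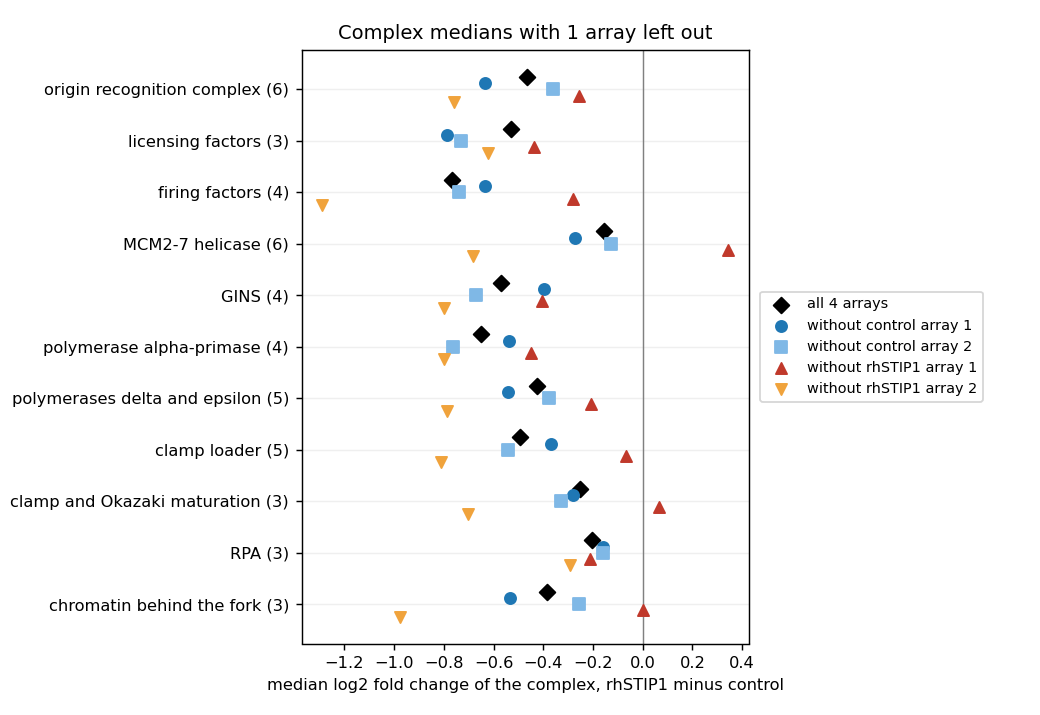
Median log2 fold change of each complex, rhSTIP1 minus control (x axis), with all 4 arrays and with each array left out; the number of genes is in parentheses. The triangles without rhSTIP1 array 1 lie furthest right for 9 of the 11 complexes and cross 0 for MCM2-7 and the clamp and Okazaki genes.

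Several probe sets were present for 22 of the 46 genes. Of 37 further probe sets, 29 reached the level for testing, 27 of these had a log2 fold change below 0, and 16 had both rhSTIP1 arrays below both controls. Over all genes tested, each by its brightest probe set, the shares were 46.8% and 14.9%. Their median was −0.36. The sign differed from that of the brightest probe set in 3 cases, in ORC4, POLA2 and RFC5. Probe sets of 1 gene share the same RNA and are no independent samples.

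**Figure D5:**
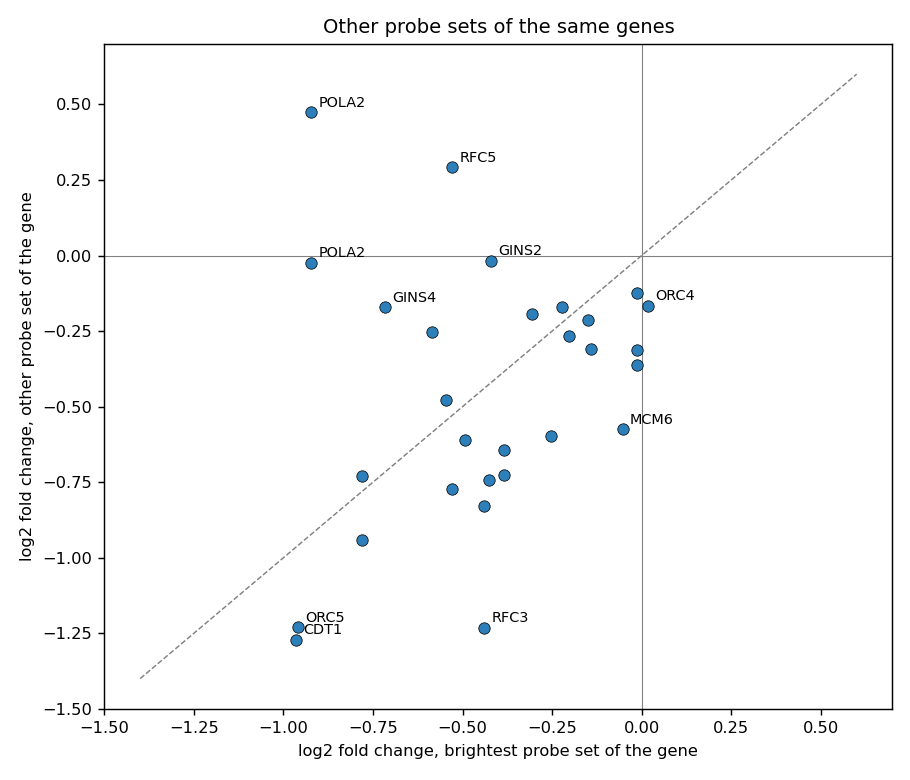
Log2 fold change, rhSTIP1 minus control, of the 29 further probe sets (y axis) against that of the brightest probe set of the same gene (x axis), 1 point per further probe set; the dashed line marks equal values. Points for ORC5 and CDT1 lie far below 0 on both axes, and only 1 POLA2 and 1 RFC5 probe set lie above 0.

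Other replication genes, from a list of 41 of which 38 were tested, had a median log2 fold change of −0.22, with 34 below 0. By the separation rule 9 were lower (23.7%) and 0 higher, and 0 passed limma's adjusted p, with 6 at an unadjusted p under 0.05. Over all genes tested, 46.8% were below 0, 3.79% separated and lower, and 1.9% separated and higher. All 6 had lower values, and lower values with such a p were found in 2.64% of all genes tested. ASF1B, a histone chaperone that feeds chromatin assembly, had 1337 and 1056 without and 566 and 529 with the protein, at −1.10 ± 0.25. FBXO5, an inhibitor of the anaphase-promoting complex that protects geminin, had 3018 and 1575 on the control arrays and 889 and 999 on the rhSTIP1 arrays, at −1.20 ± 0.33. PCLAF, which binds PCNA, had 10158 and 5262 in control cells against 3579 and 2868 in treated cells, at −1.19 ± 0.32. TICRR, which brings firing factors to the helicase, had control signals of 419 and 194 and treated signals of 116 and 97.9, at −1.30 ± 0.40. DTL, a subunit of the ligase that destroys CDT1, had 904 and 1138 without and 297 and 842 with the protein, at −0.99 ± 0.45. The remaining separated genes were RMI1 (−0.80 ± 0.23), WDHD1 (−0.67 ± 0.34), CHTF18 (−0.62 ± 0.24) and MCM8 (−0.60 ± 0.28). The 6 others with the smallest unadjusted p were the fork protection factor TIMELESS (−0.52 ± 0.26), the maintenance methyltransferase DNMT1 (−0.44 ± 0.24), the nuclease and helicase DNA2 (−0.56 ± 0.33), RNASEH2A (−0.54 ± 0.33), RIF1 (−0.36 ± 0.23) and the PCNA unloader ATAD5 (−0.41 ± 0.34). MTBP, which works with TICRR, was too dim to be tested, at 74.4 and 85.7 on the control arrays and 10.9 and 17.9 on the rhSTIP1 arrays.

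Set beside them, 14 tested genes of deoxynucleotide supply had a median of −0.10 with 5 separated and lower (35.7%). The 32 mitosis genes had a median of −1.35 with 26 separated and lower (81.25%). Over all genes tested, 3.79% were separated and lower. The 2 treated arrays ran the other way round in the mitosis genes, with medians of −1.07 on rhSTIP1 array 1 and −1.65 on rhSTIP1 array 2 against the control mean, where the 46 replication genes had −0.76 and −0.20. The controls also differed by −1.07 over the mitosis genes, control array 2 being lower. Differences between these lists were not tested.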

How the data were processed

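The authors deposited 1 linear intensity per probe set and array. The submitters' processing notes name MAS5 and Affymetrix Expression Console 1.1. MAS5 works array by array, and the trimmed mean was 500.1 on every array, which shows a common scaling. The deposited intensities were not on a log2 scale. The table holds no detection calls, so dim signals cannot be told from background, and no genome build for these values is given in the sources used here.

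Of 54675 probe sets, 62 were controls, 41091 had 1 gene symbol in the platform annotation, 1801 several and 11721 none. Each gene took its probe set with the highest mean over the 4 arrays, and genes with a mean of at least 69.4, the median of all probe set means, were tested. rhSTIP1 was compared with control by limma 3.58.1 in R 4.3.3 (lmFit, eBayes with trend, 2 residual and 5.56 prior degrees of freedom), fitted to log2(signal + 16). Its two-sided p-values were adjusted by Benjamini-Hochberg over 12296 genes. Fold changes on that scale understate those of dim genes. The steps were tested on simulated data. The members, lists, markers and motifs were chosen with earlier results of these data known, and the report names all 46 members and, of the further replication list, the separated genes and the 6 others with the smallest p, while MTBP, POLE3 and POLE4 were added after their values were seen. Alternatives covered the pseudocount, filter, scaling, probe sets, replicate block, eBayes settings and each array left out. The number of arrays limits the precision. Promoter sequences and their coordinates are RefSeq's, on GRCh38.p14.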

Additional observations from a re-analysis of the deposited data

How the results depend on the processing

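The median log2 fold change of the 46 genes stayed below 0 under all 15 alternatives, between −0.76 and −0.20, both reached by leaving out a treated array. The count of genes separated and lower was 15, lay between 12 and 19 with the other alternatives that kept all arrays, was 9 with median centring, and ran from 5 to 33 with 1 array left out, where the share over all genes tested was 5.32% to 8.41%, in place of 3.79%. The low end of 5, without rhSTIP1 array 1, is near the 6.69% of all genes then separated and lower. No gene of the 46 was separated and higher under any of these, where the share over all genes tested was 1.22% to 7.69%. With all arrays kept, the share of all genes tested that was separated and lower was 2.85% to 6.23%. Calls over all genes at an adjusted p of 0.05 were 0, but 1 with the filter at the 70th percentile, 2 with robust eBayes, 247 with the replicate block and between 0 and 6 with 1 array left out. With the replicate number as a block, 1 of the 46 was called, ORC5 (adjusted p = 0.0195), against 247 of the 12296 genes tested, a similar share. The 2 pairs share only a number in the labels, which do not say what it marks; the deviations of same-numbered arrays correlated at 0.362 over all genes. The cause of these changes was not tested. Signs turned for MCM4 (0.041) and MCM6 (0.0028) with median centring, for ORC4 (−0.021) and MCM4 (0.036) with quantile normalization, for ORC4 (−0.074) with the mean of probe sets, and for ORC4 (−0.17) and RFC5 (0.29) with the second probe set. With 1 array left out, which assumes that a lone array varies like the other group, the medians ran from −0.68 to 0.34 for MCM2-7 and from −0.70 to 0.064 for the clamp and Okazaki genes, and 16 genes changed sign. Their ranges were −0.094 to 0.13 for ORC4, −0.79 to 0.34 for CDC6, −0.51 to 0.18 for MCM2, −0.76 to 0.39 for MCM3, −0.33 to 0.30 for MCM4, −0.81 to 0.51 for MCM5, −0.61 to 0.50 for MCM6, −0.98 to 0.13 for GINS2, −0.21 to 0.37 for POLD2, −0.37 to 0.085 for RFC1, −0.91 to 0.034 for RFC3, −0.39 to 0.064 for PCNA, −0.71 to 0.20 for FEN1, −0.47 to 0.063 for RPA1, −0.76 to 0.10 for RPA3 and −0.98 to 0.35 for CHAF1B. Signal over background limits the dim genes most: ORC1, the dimmest of the 46, had a mean signal of 124, and the table used holds no detection calls.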
